A study of Mus musculus with 144 samples.

Results

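In mouse liver, 529 polyadenylation sites of the authors' filtered list of 29199 were the sites highest in the dark phase. A polyadenylation site is the place where a transcript is cut and given its poly(A) tail, and 3′ mRNA sequencing counts reads at each such site. The sites were chosen on wild-type total RNA alone, from CPM, a site's count scaled to the summed site counts of its library, averaged over the 6 libraries at each of 6 times. A site was taken when its mean over the times was at least 2 CPM, its highest time mean was at least 2 times its lowest, and the highest time mean fell at ZT14 or ZT18. ZT is zeitgeber time in hours after lights on. Of the 18060 filtered sites with a mean of at least 2 CPM, the 529 were 2.93%. Wild-type total RNA therefore describes the sites and tests nothing about them, and nuclear, polysomal and Bmal1-/- RNA, which were not used to choose, carry the tests.

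The series followed the choice of polyadenylation sites in liver over the day. All mice were male C57BL/6J animals on a 12 h:12 h light-dark cycle that could eat and drink at any time. Wild-type livers gave total, nuclear and polysomal RNA, and livers of Bmal1-/- mice gave total RNA, with 6 libraries at each of ZT2, 6, 10, 14, 18 and 22 in each of these 4 kinds of RNA. The labels give no age, do not say which stretch of the Bmal1 gene is altered or in which cells, and do not say that the 6 libraries at a time came from 6 separate mice, so p-values measure the spread between these libraries, which may in part be technical.

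The liver of a mouse with food always available meets most of its food in the dark, when mice are active. BMAL1 is the transcription factor that, with its partner CLOCK, binds E-box sequences and drives the clock genes, and PER2 is one of the proteins that later represses that pair. Genes known to peak in the liver at night include those for fat and cholesterol synthesis, glucose storage, bile acid synthesis, heme synthesis for cytochrome P450 enzymes, and the protein chaperones that follow body temperature and feeding. A gene can hold several polyadenylation sites, which give transcripts with different ends, so a site near the annotated end and a site inside the same gene can follow different courses. Nuclear RNA is rich in newly made transcripts, and polysomal RNA is RNA bound to ribosomes.

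The promoters of 6 genes are shown because their sites rose in nuclear RNA in the dark (values below) and because each holds a motif of a factor known for control by heat, cyclic AMP or the clock. They were picked after the values were seen. The sequences are RefSeq's on GRCm38.p6, 250 bases before to 50 after an annotated start, written 5′ to 3′ on the gene's strand, with the motif match in capitals on whichever strand it lies. Hsph1 and Chordc1 hold the heat shock element, Errfi1 and Trp53inp2 the cyclic AMP response element, and Tspan4 and Fkbp5 the E-box. Hsph1 also holds an E-box, and matches other than the one named for each gene are left in lower case.
Hsph1, chr5:149636287-149636586, minus strand: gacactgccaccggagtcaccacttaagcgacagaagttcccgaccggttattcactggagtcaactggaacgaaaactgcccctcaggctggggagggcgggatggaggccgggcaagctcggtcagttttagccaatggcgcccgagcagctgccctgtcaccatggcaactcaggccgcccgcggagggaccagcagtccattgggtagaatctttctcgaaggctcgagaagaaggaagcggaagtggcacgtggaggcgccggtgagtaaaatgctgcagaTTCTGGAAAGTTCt
Chordc1, chr9:18292017-18292316, plus strand: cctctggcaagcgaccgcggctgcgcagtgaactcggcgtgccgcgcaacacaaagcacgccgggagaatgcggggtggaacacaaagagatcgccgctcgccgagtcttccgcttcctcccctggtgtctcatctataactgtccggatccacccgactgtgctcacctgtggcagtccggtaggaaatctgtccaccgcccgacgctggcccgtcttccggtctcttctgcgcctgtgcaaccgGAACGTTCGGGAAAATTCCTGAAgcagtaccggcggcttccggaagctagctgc
Errfi1, chr4:150854820-150855119, plus strand: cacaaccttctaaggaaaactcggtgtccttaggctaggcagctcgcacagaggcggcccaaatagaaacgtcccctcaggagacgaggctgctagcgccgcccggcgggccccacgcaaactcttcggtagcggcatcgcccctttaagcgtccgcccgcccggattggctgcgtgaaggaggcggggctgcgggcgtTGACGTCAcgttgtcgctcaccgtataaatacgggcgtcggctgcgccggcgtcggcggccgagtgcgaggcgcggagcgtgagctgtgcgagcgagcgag
Trp53inp2, chr2:155381606-155381905, plus strand: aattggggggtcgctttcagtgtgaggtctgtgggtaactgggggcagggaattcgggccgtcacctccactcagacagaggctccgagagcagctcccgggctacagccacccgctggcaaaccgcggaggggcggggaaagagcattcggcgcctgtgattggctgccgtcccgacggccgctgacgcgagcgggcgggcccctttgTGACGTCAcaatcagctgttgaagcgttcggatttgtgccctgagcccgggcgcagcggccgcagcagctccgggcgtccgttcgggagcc
Tspan4, chr7:141476130-141476429, plus strand: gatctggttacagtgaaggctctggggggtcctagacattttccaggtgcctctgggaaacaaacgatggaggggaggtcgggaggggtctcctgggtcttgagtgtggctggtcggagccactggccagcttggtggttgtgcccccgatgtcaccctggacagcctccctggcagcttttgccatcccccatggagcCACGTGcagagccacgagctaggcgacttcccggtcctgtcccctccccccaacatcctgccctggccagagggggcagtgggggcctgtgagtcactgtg
Fkbp5, chr17:28486100-28486399, minus strand: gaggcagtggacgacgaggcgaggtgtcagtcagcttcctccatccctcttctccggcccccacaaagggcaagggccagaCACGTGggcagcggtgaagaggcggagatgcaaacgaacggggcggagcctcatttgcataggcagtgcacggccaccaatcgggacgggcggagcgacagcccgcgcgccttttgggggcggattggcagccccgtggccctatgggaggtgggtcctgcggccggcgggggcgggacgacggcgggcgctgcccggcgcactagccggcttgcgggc
In Chordc1 the capitals are 3 overlapping matches, and in Hsph1 the match is to the reverse strand.

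The search covered 7 motifs on both strands, each by itself, so that 1 stretch could count under more than 1 motif. RefSeq's table held a promoter for 283 of the 361 genes that carry the sites and for 27025 genes in all. Filtered sites were given to 8727 genes, so many of the 27025 had no counted site in liver. Shares over genes with filtered sites alone were not taken. The heat shock element (GAA, any 2 letters, TTC, any 2 letters, GAA) stood in 7 of the 283 promoters or 2.47%, against 0.662% of all genes. The cyclic AMP response element (TGACGTCA) stood in 13 or 4.59%, against 2.03%. The E-box (CACGTG) stood in 30 or 10.6%, against 8.09%, and the CCAAT box (CCAAT) in 136 or 48.1%, against 41.1%. Shares lay closer together for the D-box (TTATGNAA; 3.89% against 3.99%), the sterol element (TCACNCCAC; 1.77% against 1.44%) and the ROR element (TAGGTCA; 2.83% against 2.97%). A match is a run of letters and no evidence of binding, and its absence says only that these letters are not in this window.

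Of the 529 sites, 468 could be given to 361 genes, and 283 of these genes held 1 such site. Hsp90aa1 held 6, Dnaja1 held 5, and Cyp7a1, Fmo5, Onecut1 and Sfpq held 4 each. In Hsp90aa1 and Onecut1 every filtered site met the rule (6 of 6 and 4 of 4), while in Sfpq it was 4 of 13. Among the 272 genes with 2 or more sites at 2 CPM or more, all such sites met the rule in 39 genes, and in 233 genes some did not, which can be for the time of their peak or for the ratio. The sites lay at the annotated gene end, within 25 bp, in 92 of 468 cases or 19.7%, against 27.2% of all sites with a mean of at least 2 CPM. They lay more than 1000 bp before the end in 206 cases or 44.0%, against 40.4%.

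In wild-type total RNA 318 sites were highest at ZT14 and 211 at ZT18. Their means ran from 2.00 to 1238 CPM with a median of 5.36, and 252 lay below 5 CPM. The ratio of the highest to the lowest time mean had a median of 2.37 and was at least 4 in 67 sites. Just inside the limit of the ratio stood a site of Ndufaf2 at 2.00056, and just outside a site of Slc25a51 at 1.99961. For the mean, a site of Dnajc3 stood inside at 2.00243 CPM, and an unnamed site on chromosome 8 stood outside at 1.99562 CPM.

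The choice rested on single libraries in many cases. Without the highest of the 6 libraries at its peak time, 245 sites still met the rule and 284 did not. A wild-type library at ZT2 (replicate 4) stood apart, with a median over the 529 sites of -1.24 on the log2 scale relative to each site's day mean, while the other 5 lay between -0.54 and -0.24. Without it 490 sites met the rule, 441 of them shared with the 529. The counts in nuclear and polysomal RNA are therefore also given for the 245 sites.

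**Figure D1:**
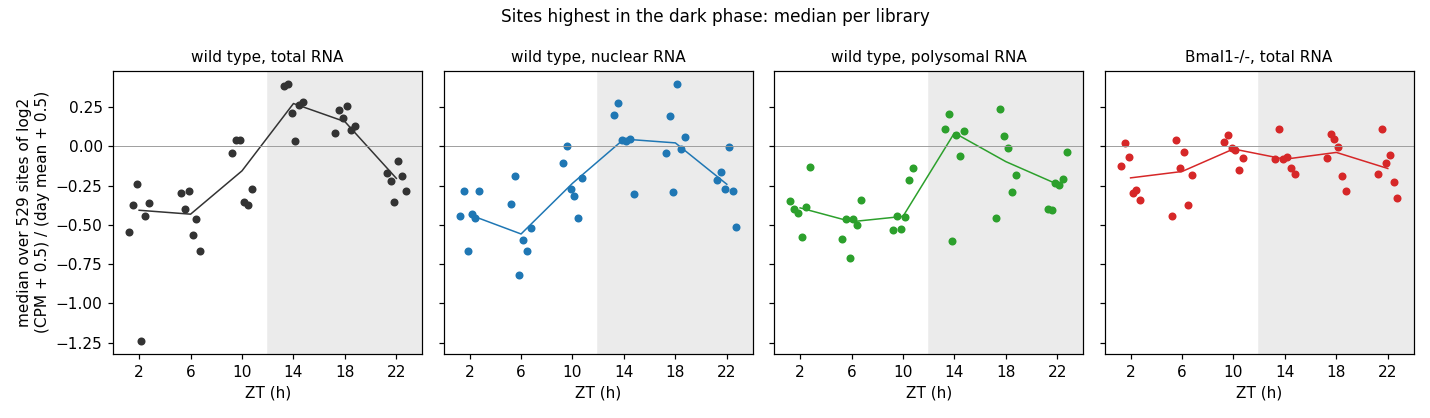
Median over the 529 sites in each library of the log2 ratio of the site's CPM to its mean over the day (0.5 CPM added to both), by zeitgeber time, for the 4 kinds of RNA. Points are libraries, 6 at each time, lines join the medians of the 6, and the dark phase is shaded. Wild-type total RNA chose the sites. In nuclear RNA the median library lay at -0.56 at ZT6 and at 0.05 at ZT14, and in Bmal1-/- RNA the medians lay between -0.20 and -0.02. At ZT14, nuclear replicate 6 lay at -0.30 and the other nuclear libraries at 0.03 to 0.27. Polysomal replicate 3 lay at -0.60 at ZT14 and the other polysomal libraries at -0.06 to 0.20. No fit left out either of these libraries alone.

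The depth, as a library's summed site counts, was 4079501 to 7771094 in wild-type total RNA, from 1404964 to 5720115 in nuclear, from 1742356 to 10477400 in polysomal and from 3175685 to 12217394 in Bmal1-/- RNA. The 9 hepatocyte marker genes summed to between 20534 and 128893 CPM of the gene counts in every library, as the liver label asks. Nr1d1, a direct target of BMAL1, had a median of 8.86 CPM in wild-type total RNA (highest 50.01) and of 0.562 CPM in Bmal1-/- (highest 2.45). Arntl, the gene of BMAL1, was still counted in Bmal1-/- (median 10.9 CPM, against 6.46), but 3′ reads can lie outside the altered stretch, so this checks nothing. The libraries are labelled male, but Xist exceeded 100 CPM in 1 library of each kind of RNA, each of them at ZT22. Pancreas markers reached 3590 CPM in 1 polysomal library at ZT2.

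In nuclear RNA a share of the sites rose in the dark and none that could be tested fell. The dark minus light difference is the mean of ZT14 and ZT18 minus the mean of ZT2 and ZT6 on the log2 scale, fitted per site by edgeR's quasi-likelihood test and adjusted over all sites tested, with a threshold of 0.05. Nuclear RNA had enough counts for 316 of the 529 sites, and 73 of these rose and 0 fell, while 0.836% of all 13402 sites tested rose and 0.5% fell. The median difference was 0.71, against 0.02 over all sites tested. Of the 245 sites that did not rest on 1 library, 60 of 157 tested rose, and of the other 284 it was 13 of 159. The low-count filter keeps a site that is high at any time, so these counts speak for the sites tested and not for all 529.

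In polysomal RNA 66 of 368 sites tested were higher in the dark and 0 lower, while 1.17% of all 16580 sites tested rose and 0.669% fell. The median difference was 0.66, against 0.00 over all sites. Of the 245 sites, 51 of 177 rose, and of the other 284 it was 15 of 191. Without the polysomal library with pancreas RNA, 55 sites rose. Of 257 sites tested in both kinds of RNA, 43 rose in both, which is 58.9% of the nuclear and 65.2% of the polysomal calls. In all, 96 sites of 63 named genes rose in at least 1 of nuclear and polysomal RNA. Neither count was taken over all sites, so the overlap is not read as a trait of these sites.

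In Bmal1-/- total RNA none of 491 sites tested passed the threshold in edgeR, as for all 20191 sites, of which 0% were called. The median difference was 0.08 with a median standard error of 0.26, against 0.01 over all sites. An unadjusted p under 0.05 was reached by 26 of the 491 sites and by 763 of the 20191. DESeq2 also called 0, and so did a cosine fit over all 6 times. Fewer cells of a type and less RNA per cell cannot be told apart in these bulk samples.

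**Figure D2:**
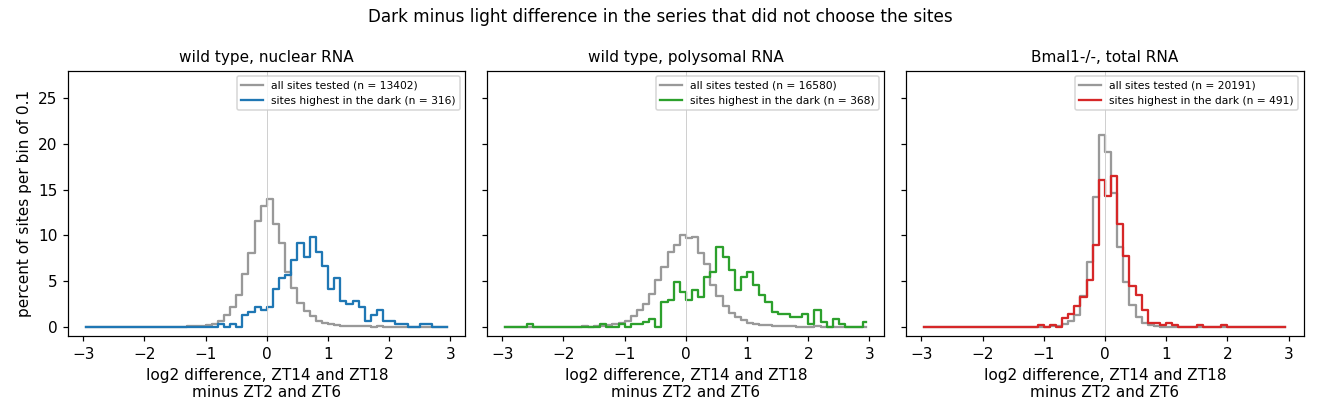
Distribution of the dark minus light log2 difference (ZT14 and ZT18 minus ZT2 and ZT6, x axis; percent of sites per bin of 0.1, y axis) in nuclear, polysomal and Bmal1-/- RNA, for the sites highest in the dark in wild-type total RNA (coloured) and for all sites tested (grey). The coloured curves centre at 0.71 and 0.66 in nuclear and polysomal RNA and at 0.08 in Bmal1-/- RNA.

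The time of the highest mean moved with these differences. It fell at ZT14 or ZT18 in nuclear RNA for 362 of the 529 sites or 68.4%, against 30.8% of all sites with a mean of at least 2 CPM. In polysomal RNA it did so for 325 or 61.4%, against 31.7%, and in Bmal1-/- for 238 or 45.0%, against 43.5%. Among 94 sites with a called 24 h rhythm in both wild-type total and nuclear RNA, the nuclear peak came 0.17 h earlier in the median (quartiles -0.66 and 0.12 h). Among 82 such sites the polysomal peak came 0.37 h later (quartiles -0.21 and 1.12 h). The wild-type total peaks come from the libraries that chose the sites, so these shifts are descriptions, and they were not taken over all sites. The median ratio of highest to lowest time mean was 2.78 in nuclear, 2.77 in polysomal and 1.62 in Bmal1-/- RNA. This ratio was not taken over all sites, and it also grows with noise at low counts. Nuclear and polysomal libraries had fewer counts in the median than total RNA, so the ratios do not rank the kinds of RNA by strength of rhythm.

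Nuclear and total RNA libraries with the same replicate number may come from the same liver, since 28 of 36 nuclear libraries correlated best with the total RNA library of their own number. A choice on separate libraries was therefore made: sites chosen by the same rule in wild-type replicates 1 to 3 (1083 sites) and tested in replicates 4 to 6. In nuclear RNA 20 of 482 such sites rose, while 0.234% of all sites rose and 0.0991% fell. In polysomal RNA 52 of 800 rose, while 0.781% of all sites rose and 0.485% fell. In Bmal1-/- 0 of 1037 passed in edgeR, with 45 at an unadjusted p under 0.05, and 0% of all sites rose. The median difference in Bmal1-/- was 0.14, against 0.03 over all sites. In each of these kinds of RNA, 0 of the chosen sites fell. In wild-type total RNA itself 40 of 1019 rose and 0 fell, while 0.458% of all sites rose, with a median difference of 0.12 against -0.02. The reverse choice, replicates 4 to 6 tested in 1 to 3, gave 121 higher and 5 lower of 1447, while 1.21% of all sites rose and 1% fell.

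Clock genes gave 3 sites of 59 filtered ones on the list, among them Per2 and Hlf, a PAR bZIP factor. The Per2 site (chr1:91415979-91416102, minus strand) had 4.56, 9.87 and 14.7 CPM in the lowest, median and highest wild-type total library at ZT2, and 33.8, 69.4 and 84.2 CPM at ZT14. In nuclear RNA these were 3.77, 7.57 and 11.9 CPM at ZT2 and 35.7, 54.8 and 140.4 CPM at ZT14. Every nuclear library at ZT14 lay above every one at ZT2. The nuclear difference was 2.58 (SE 0.34, adjusted p 6.33e-06), and the polysomal one was 1.67 (SE 0.36, adjusted p 0.00730). Bmal1-/- libraries had 16.03, 27.4 and 34.7 CPM at ZT2 and 29.9, 39.2 and 48.5 CPM at ZT14. Their ranges overlapped, with 5 of 6 libraries at ZT14 above all those at ZT2, and the difference was 0.36 (SE 0.15, adjusted p 1). The Hlf site was tested in polysomal RNA, where its difference was 0.998 (adjusted p 0.0890).

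Fat and cholesterol synthesis gave 9 sites. Thrsp, a lipogenic protein that answers thyroid hormone and carbohydrate, had the most counts among them. Its site (chr7:97412928-97413339, minus strand) had 105.8, 255.4 and 337.1 CPM in nuclear RNA at ZT2 and 245.8, 1223 and 1927 CPM at ZT14. Polysomal RNA had 159.9, 327.7 and 692.1 CPM at ZT2 and 249.7, 1339 and 2639 CPM at ZT14. In both, 5 of the 6 libraries at ZT14 lay above all those at ZT2 and the remaining one was low. The difference was 1.84 in nuclear RNA (SE 0.43, adjusted p 0.0176) and 2.18 in polysomal RNA (SE 0.44, adjusted p 0.00511). Bmal1-/- had medians of 110.8 CPM at ZT2 and 140.0 CPM at ZT14 in overlapping ranges, and a level that differed from wild type by -2.74 (SE 0.27, adjusted p 6.35e-13).

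Elovl6, which lengthens fatty acids, held 3 sites. Its most counted site (chr3:129638267-129638500, plus strand) had 12.2, 34.8 and 66.9 CPM in polysomal RNA at ZT6 and 25.3, 83.3 and 124.3 CPM at ZT14. The groups overlapped, and the difference of 1.22 passed the threshold (SE 0.33, adjusted p 0.0395). In nuclear RNA it was 0.86 (adjusted p 0.264), and the other 2 sites passed in neither. A site of Fdps, an enzyme of cholesterol synthesis, had a nuclear difference of 1.03 (adjusted p 0.258).

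Glucose use and storage gave 3 sites, 2 of them in Ppp1r3b. Ppp1r3b brings protein phosphatase 1 to glycogen and so favours glycogen synthesis. Its site at chr8:35388081-35388149 (plus strand) had 14.04, 35.3 and 65.5 CPM in nuclear RNA at ZT6 and 101.5, 145.7 and 173.5 CPM at ZT14, without overlap. The nuclear difference was 1.43 (SE 0.24, adjusted p 0.000316), and the polysomal one of 1.38 missed the threshold (SE 0.41, adjusted p 0.0771). The second site of the gene (chr8:35387335-35387442) rose in both, by 1.87 (SE 0.37, adjusted p 0.00370) and 2.09 (SE 0.41, adjusted p 0.00239). In Bmal1-/- the first site ran from 159.0 to 688.5 CPM at ZT6 and from 211.3 to 499.7 CPM at ZT14, and 0 of 6 libraries at ZT14 lay above all those at ZT6.

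Bile acid synthesis gave 5 sites, 4 of them in Cyp7a1, the rate-limiting enzyme. The Cyp7a1 site at chr4:6266098-6266219 (minus strand) had 1.01, 8.70 and 15.6 CPM in polysomal RNA at ZT2 and 23.9, 31.4 and 60.7 CPM at ZT14, without overlap. In nuclear RNA it had 0.465, 1.89 and 5.42 CPM, then 2.92, 6.14 and 11.5 CPM, with 4 of 6 libraries above all those at ZT2. The differences were 1.83 (SE 0.31, adjusted p 0.000430) and 1.87 (SE 0.48, adjusted p 0.0349). Of the other 3 Cyp7a1 sites, those at chr4:6266035-6266080 and chr4:6267386-6267518 rose in both kinds of RNA, by 2.22 and 1.51 in nuclear and by 1.71 and 1.61 in polysomal RNA. In Bmal1-/- the differences of the 3 sites were 0.55, 0.26 and 0.32, with standard errors from 0.31 to 0.38. The fifth site lay in Cyp7b1, an enzyme of the alternative route, and its differences were 0.40 in nuclear and -0.53 in polysomal RNA, neither past the threshold.

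Drug metabolism and heme genes gave 15 of 49 filtered sites, in 8 genes, of which 4 of 10 tested rose in nuclear and 5 of 14 in polysomal RNA, all in Alas1 and Por. Over all tested sites of this list, 7 of 39 rose in nuclear and 8 of 45 in polysomal RNA. Por is the reductase that feeds electrons to the cytochrome P450 enzymes. Its site at chr5:135735036-135735336 (plus strand) had 129.2, 180.6 and 185.3 CPM in nuclear RNA at ZT2 and 167.7, 720.6 and 936.2 CPM at ZT14. Polysomal RNA had 108.4, 145.5 and 233.6 CPM, then 130.3, 629.0 and 837.5 CPM. Each time 1 library at ZT14 was as low as those at ZT2 and 5 lay above them all. The differences were 1.58 (SE 0.23, adjusted p 3.84e-05) and 1.67 (SE 0.21, adjusted p 2.55e-06). In Bmal1-/- the medians were 69.8 CPM at ZT2 and 50.3 CPM at ZT14, and the level differed from wild type by -1.02 (SE 0.14, adjusted p 1.44e-08).

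Sites of Nr1i3, the xenobiotic receptor CAR, had nuclear differences of 0.69 and 0.81 (adjusted p 0.0631 and 0.111). A site of Gstp1, a glutathione transferase, was highest at ZT18 in wild-type total RNA but had differences of -0.05 in nuclear and -0.18 in polysomal RNA.

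Heat shock and cytosolic chaperone genes held the largest share of the lists: 21 of their 51 filtered sites, or 41.2%, met the rule, in 9 genes, against 1.81% of all filtered sites. In nuclear RNA 9 of 15 tested rose, with a median of 0.84, and in polysomal RNA 2 of 19, with a median of 0.54. Over all tested sites of this list, 9 of 32 rose in nuclear and 2 of 39 in polysomal RNA, against 0.836% and 1.17% of all sites tested. Hsp90aa1, the inducible cytosolic HSP90, gave 6 of the sites, and 4 of the 5 tested in nuclear RNA rose, by 0.84 to 1.14. The most counted (chr12:110692656-110692872, minus strand) had 13.7, 27.7 and 45.6 CPM in nuclear RNA at ZT6 and 38.3, 68.3 and 142.3 CPM at ZT18. The ranges overlapped, with 4 of 6 libraries above all those at ZT6, and the adjusted p was 0.00623. In polysomal RNA the 2 times overlapped widely (5.95 to 106.9 CPM at ZT6 and 35.2 to 202.4 CPM at ZT18) and the difference was 0.52 (SE 0.45, adjusted p 0.693).

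Hsph1, a co-chaperone of HSP70, and Chordc1, a co-chaperone of HSP90, are the genes whose promoters with a heat shock element are printed above. The Hsph1 site (chr5:149616842-149617108) had 2.76, 6.47 and 10.7 CPM in nuclear RNA at ZT6 and 11.3, 18.8 and 23.9 CPM at ZT14. The Chordc1 site (chr9:18313770-18314006) had 21.7, 24.9 and 27.1 CPM, then 35.8, 49.4 and 61.5 CPM. Neither overlapped between the 2 times, and the differences were 1.15 (SE 0.21, adjusted p 0.00128) and 0.70 (SE 0.15, adjusted p 0.00740). In Bmal1-/- both overlapped: Hsph1 ran from 17.7 to 27.5 CPM at ZT6 and from 18.7 to 38.1 CPM at ZT14, and Chordc1 from 14.3 to 28.8 and from 20.0 to 35.0 CPM. Dnajb1, an HSP40 protein, rose in both nuclear and polysomal RNA, by 1.14 (SE 0.28, adjusted p 0.0245) and 1.01 (SE 0.26, adjusted p 0.0281). A site of Hspa1b rose by 2.06 in nuclear RNA, but its near-identical neighbour Hspa1a can share its reads, so the gene is uncertain. Of the 5 sites of Dnaja1, another HSP40 protein, 1 rose, in polysomal RNA (chr4:40723974-40724019; 1.11, SE 0.29, adjusted p 0.0328), and the most counted had a nuclear difference of 0.76 (adjusted p 0.135).

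Folding in the endoplasmic reticulum gave 11 of 90 filtered sites, of which 4 of 8 tested rose in nuclear and 1 of 9 in polysomal RNA. Over all tested sites of this list, it was 4 of 57 and 1 of 68, against 0.836% and 1.17% of all sites tested. Hspa5 is the main chaperone there (BiP). Its most counted site (chr2:34776164-34776480, plus strand), the highest of all 529 at 1238 CPM, had 162.6, 362.4 and 602.1 CPM in nuclear RNA at ZT6 and 418.1, 628.9 and 997.6 CPM at ZT18. The groups overlapped and the difference of 0.54 missed the threshold (adjusted p 0.201). The 2 sites of Hspa5 further inside the gene rose in nuclear RNA, by 1.28 (chr2:34775746-34776007; SE 0.26, adjusted p 0.00521) and 0.79 (chr2:34774031-34774242; SE 0.20, adjusted p 0.0349). In polysomal RNA none of the 3 passed. Herpud1, which serves the removal of misfolded proteins, rose in both, by 0.86 (SE 0.18, adjusted p 0.00792) and 0.70 (SE 0.19, adjusted p 0.0358), and its polysomal libraries had 217.7, 359.7 and 448.7 CPM at ZT2 and 282.4, 706.3 and 847.3 CPM at ZT14.

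**Figure D3:**
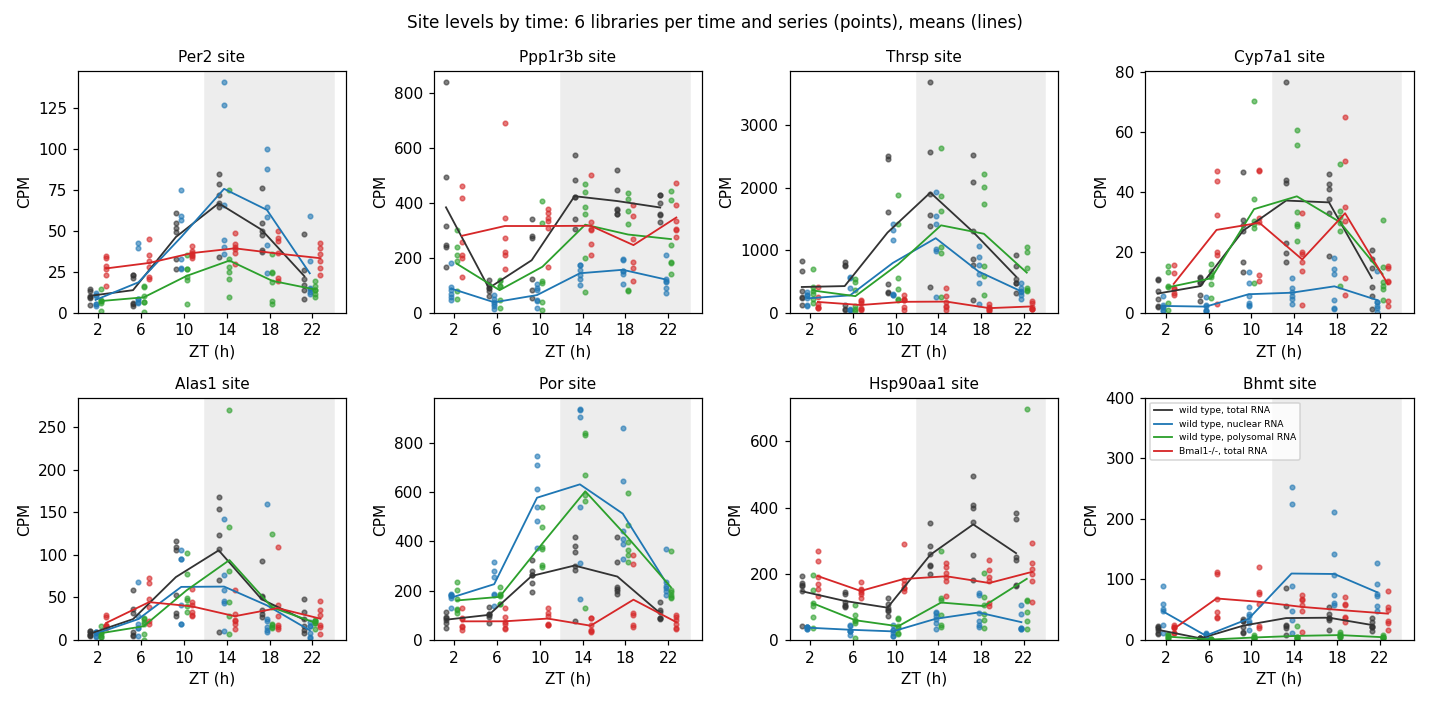
CPM of 8 sites highest in the dark by zeitgeber time. Points are the 6 libraries of each time in each kind of RNA, lines join the time means, and the dark phase is shaded. In nuclear RNA Per2, Ppp1r3b, Alas1 and Bhmt show no overlap between the light and dark times given in the text, while the Bmal1-/- values at those times overlap in all 8 panels.

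The other lists gave few sites. PPARα targets gave 6 of 46, in Cyp4a10, Acot1, Acot3 and Ehhadh, and 1 rose, an Acot3 site in polysomal RNA (3.40, SE 0.80, adjusted p 0.0144). In wild-type total RNA 1 library held 72.3% of the summed CPM of this Acot3 site at its peak time. Without that library the site did not meet the rule, and it was not tested in nuclear RNA. Cyp4a10 and Acot1 have near-identical relatives, so their reads can be shared. Cyp4a10, a fatty acid hydroxylase, had nuclear and polysomal differences of 0.23 each, and in Bmal1-/- 1.52 (SE 0.71, adjusted p 1) with a range from 20.8 to 2755 CPM at ZT18. Ribosome biogenesis gave 6 of 62 sites, in Ncl, Nop56, Nolc1 and Polr1a, and 0 of 3 tested passed in nuclear or polysomal RNA in edgeR. Ddit4, an inhibitor of mTORC1, rose in polysomal RNA by 1.22 (SE 0.32, adjusted p 0.0356), and Dusp1, a phosphatase of MAP kinases, in nuclear RNA by 0.96 (SE 0.25, adjusted p 0.0394). Of 77 filtered sites in genes for deadenylation and poly(A) factors, 0 were highest in the dark by the rule.

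**Figure D4:**
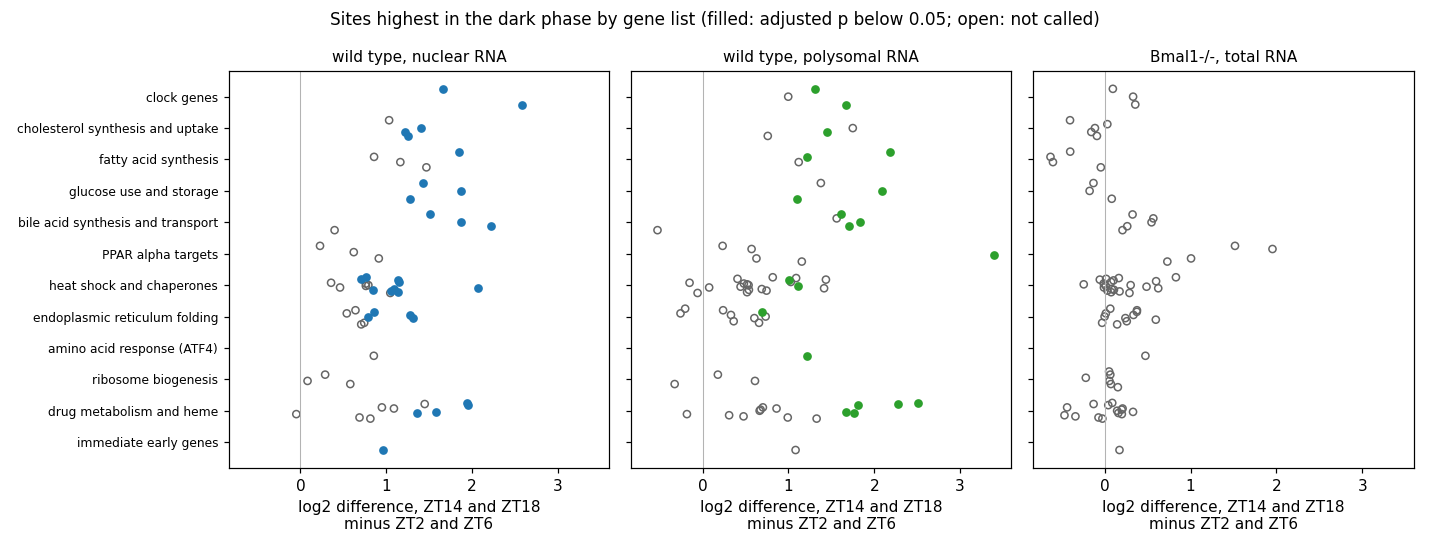
Dark minus light log2 difference (x axis) of each tested site highest in the dark, by gene list (y axis), in nuclear, polysomal and Bmal1-/- RNA. Filled points passed an adjusted p of 0.05 over all sites tested and open points did not. In nuclear RNA 9 of 15 heat shock and chaperone sites are filled, in polysomal RNA 2 of 19, and no point is filled in Bmal1-/- RNA. Of all sites tested, 0.836% rose in nuclear, 1.17% in polysomal and 0% in Bmal1-/- RNA.

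The widest ranges among sites with 10 CPM or more belonged to Mt2, Alas1, Bhmt, Tsku, Cish and Eif4ebp3, besides Per2 and 2 unnamed sites on chromosome 9, and of these genes Alas1 and Per2 are on the lists. Tsku, a secreted protein of the liver, had 2 sites. The one at chr7:98350717-98350810 (minus strand) had 0.787, 4.11 and 16.02 CPM in nuclear RNA at ZT6 and 13.3, 32.1 and 66.9 CPM at ZT18, and in polysomal RNA 0.496, 3.29 and 7.59, then 14.9, 21.8 and 33.6 CPM. Polysomal groups did not overlap, and 5 of 6 nuclear libraries at ZT18 lay above all those at ZT6. The differences were 2.16 (SE 0.35, adjusted p 0.000220) and 2.45 (SE 0.37, adjusted p 6.83e-05), and in Bmal1-/- 0.45 (SE 0.34, adjusted p 1). Its level in Bmal1-/- differed from wild type by -1.204 (SE 0.19, adjusted p 3.15e-07).

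Eif4ebp3, a translation repressor of the 4E-BP family, had 39.9, 43.9 and 49.8 CPM in nuclear RNA at ZT6 and 55.2, 113.1 and 231.1 CPM at ZT18, without overlap (chr18:36665656-36665929). It rose by 1.47 in nuclear (SE 0.22, adjusted p 7.23e-05) and by 1.90 in polysomal RNA (SE 0.34, adjusted p 0.000861). In Bmal1-/- its ranges overlapped, 15.2 to 27.7 CPM at ZT6 and 24.8 to 217.5 CPM at ZT18, with 4 of 6 libraries above all those at ZT6 and a difference of 1.18 (SE 0.38, adjusted p 1). The Cish site passed in neither nuclear nor polysomal RNA (0.65 and 1.63, adjusted p 0.787 and 0.158).

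Further sites in genes outside the lists, picked after their values were seen, also rose. St3gal5 makes the ganglioside GM3, and its site at chr6:72154416-72154575 had 32.9, 44.5 and 51.4 CPM in nuclear RNA at ZT2 and 42.3, 127.6 and 258.0 CPM at ZT14. In polysomal RNA it had 50.7, 62.8 and 121.1, then 44.8, 445.6 and 811.6 CPM. Each time 1 library at ZT14 was low and 5 lay above all those at ZT2. The differences were 1.55 (SE 0.20, adjusted p 4.27e-06) and 2.12 (SE 0.26, adjusted p 2.55e-06). In Bmal1-/- 0 of 6 libraries at ZT14 lay above those at ZT2.

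Fkbp5, a co-chaperone of the glucocorticoid receptor and one of its targets, had 1.11, 6.88 and 9.76 CPM in nuclear RNA at ZT2 and 10.5, 17.2 and 49.0 CPM at ZT18 (chr17:28399093-28399224). The groups did not overlap, and the differences were 1.86 in nuclear (SE 0.29, adjusted p 0.000116) and 1.83 in polysomal RNA (SE 0.31, adjusted p 0.000300). Errfi1, an inhibitor of the EGF receptor, rose by 1.15 (SE 0.21, adjusted p 0.00114) and 0.98 (SE 0.21, adjusted p 0.00517), and its nuclear libraries ran from 29.0 to 57.5 CPM at ZT2 and from 68.1 to 226.9 CPM at ZT18 (chr4:150868297-150868426). Trp53inp2, an autophagy protein, rose by 0.84 (SE 0.20, adjusted p 0.0179) and 0.78 (SE 0.20, adjusted p 0.0326), with 4 of 6 nuclear libraries at ZT18 above all those at ZT6 (chr2:155389678-155389853). Promoters of these 3 genes are among those printed above.

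Site usage, the share of a site in its gene's site counts, was called different between dark and light for 2 of the 190 sites tested in nuclear RNA, while 0.0246% of all 8132 sites tested rose. Both lie in Bhmt, which remethylates homocysteine to methionine with betaine. In polysomal RNA 0 of 211 and in Bmal1-/- 0 of 281 sites passed in edgeR, with 12 and 8 at an unadjusted p under 0.05, and over all sites tested 0% rose in each. The Bhmt sites lie 4939 bp (chr13:93621830-93622006) and 8380 bp (chr13:93625271-93625421, both minus strand) before the annotated gene end, and the other 4 filtered sites of the gene lie within 710 bp of the end. Usage was tested only for sites with at least 5% of their gene. At ZT18 the mean shares of these 2 sites were 2.22% and 1.72% in polysomal and 1.31% and 0.77% in Bmal1-/- RNA. Their usage was therefore not tested in these 2 kinds of RNA.

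The site 4939 bp before the end had 1.42, 7.24 and 10.8 CPM in nuclear RNA at ZT6 and 58.0, 91.1 and 210.8 CPM at ZT18. Its share of the Bhmt site counts in nuclear RNA was 0.673%, 2.999% and 4.11% at ZT6 and 9.24%, 20.4% and 27.0% at ZT18. No library at ZT18 was as low as any at ZT6. The level differed by 2.61 (SE 0.35, adjusted p 9.98e-06) and the share by 1.73 on the log2 scale (SE 0.28, adjusted p 0.00450). For the site 8380 bp before the end, the share was 3.70%, 9.23% and 17.8% at ZT6 and 23.3%, 30.9% and 37.3% at ZT18, also without overlap, and it differed by 1.11 (SE 0.20, adjusted p 0.0100). In polysomal RNA the first site rose by 1.961 (SE 0.44, adjusted p 0.0104) from near 0 (0 to 1.31 CPM at ZT6, 4.24 to 13.2 CPM at ZT18). In Bmal1-/- it had 36.2, 56.8 and 112.9 CPM at ZT6 and 29.7, 47.6 and 71.7 CPM at ZT18, so that the libraries at ZT6 lay above the 1.88 to 3.42 CPM of wild-type total RNA at that time. The most counted Bhmt site, 66 bp before the end, had nuclear and polysomal differences of 0.30 and -0.72, neither past the threshold.

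Alas1, the first enzyme of heme synthesis, had 8 filtered sites, and 3 of them met the rule. The site 465 bp before the gene end (chr9:106233920-106234133, minus strand) rose in nuclear RNA by 1.95 (SE 0.39, adjusted p 0.00521) and in polysomal RNA by 1.81 (SE 0.35, adjusted p 0.00273). The site at chr9:106241636-106241772 had 2.97, 8.22 and 9.52 CPM in nuclear RNA at ZT2 and 10.996, 51.8 and 142.2 CPM at ZT14, without overlap. Its polysomal libraries had 3.02, 7.50 and 16.3, then 6.89, 62.5 and 270.8 CPM, with 1 low library. The differences were 1.94 (SE 0.48, adjusted p 0.0283) and 2.51 (SE 0.49, adjusted p 0.00351). The third (chr9:106241270-106241338) rose by 2.28 in polysomal RNA (SE 0.47, adjusted p 0.00477), and its nuclear difference was 1.45 (adjusted p 0.118).

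Neighbouring Alas1 sites in the middle of the gene were highest at ZT10 and so missed the rule. The site at chr9:106241447-106241572 had a mean of 880.1 CPM in nuclear RNA at ZT10 and 621.8 CPM at ZT14, against 101.4 and 65.5 CPM in wild-type total RNA. In nuclear RNA it was the most counted Alas1 site, at 377.2 CPM over the day against 40.5 CPM in total RNA, while the site near the gene end had 85.5 against 141.3 CPM. In Bmal1-/- the 3 sites had differences of 0.04, 0.09 and -0.13, with standard errors from 0.32 to 0.38.

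**Figure D5:**
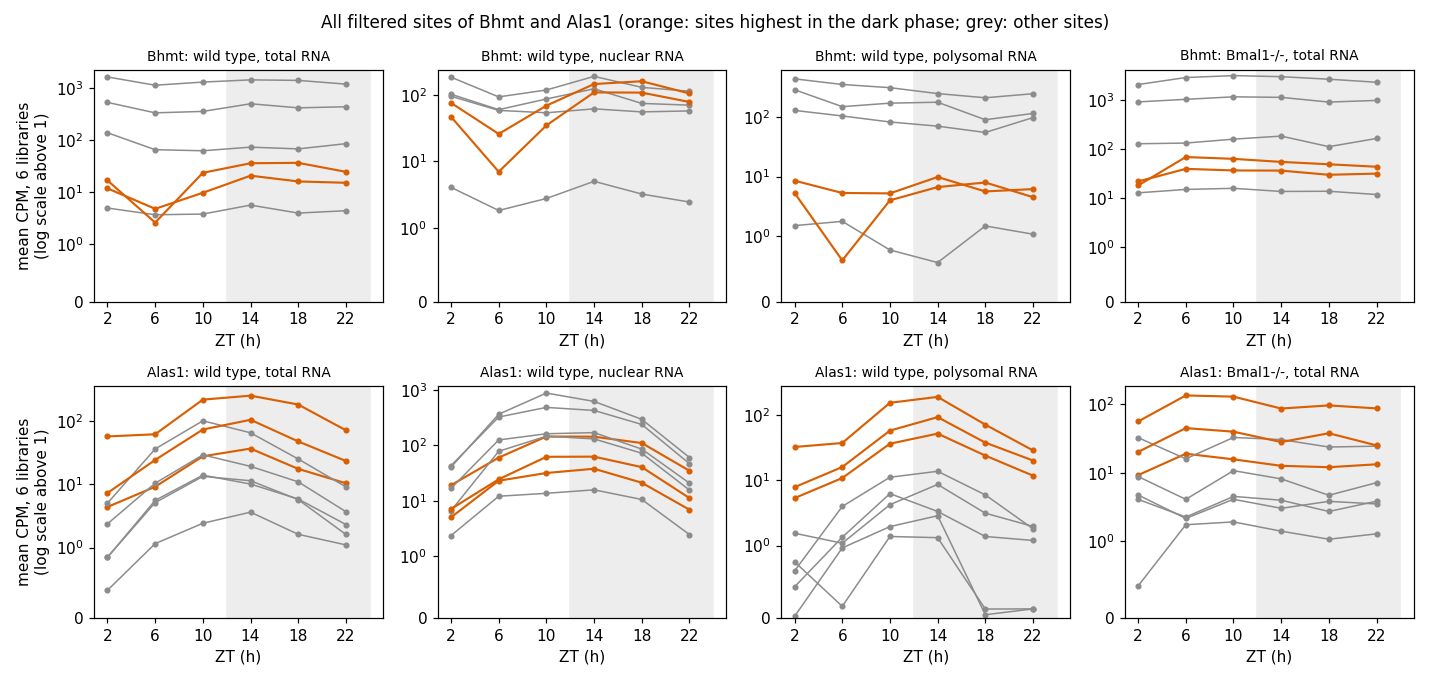
Mean CPM of 6 libraries (y axis, logarithmic above 1 CPM) by zeitgeber time for every filtered site of Bhmt (upper) and Alas1 (lower) in the 4 kinds of RNA. Orange lines are sites that met the rule in wild-type total RNA, grey lines the other sites of the gene, and the dark phase is shaded. In nuclear RNA the 2 orange Bhmt sites were lowest at ZT6 and near the means of the other sites in the dark, and the highest grey Alas1 site, with its peak at ZT10, lay above the orange ones.

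The same genes held 539 further sites with 2 CPM or more that were not chosen. Of these, 12 of 397 tested rose in nuclear RNA and 13 of 442 in polysomal RNA, while 0.836% and 1.17% of all sites tested rose. Their medians were 0.21 and 0.14, against 0.02 and -0.002 over all sites. In Bmal1-/- 0 of 531 passed, and 0% of all sites did. The difference between chosen and other sites was not tested.

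Whether the dark minus light difference itself changed in Bmal1-/- was tested in replicates 4 to 6 on sites chosen in wild-type replicates 1 to 3. Of 1048 sites tested, 8 had a smaller difference in Bmal1-/- than in wild-type total RNA and 0 a larger one, while 0.0842% of all 20189 sites had a smaller and 0.0149% a larger one. The reverse choice, replicates 4 to 6 tested in 1 to 3, gave 12 smaller and 2 larger of 1446, while 0.0918% of all sites had a smaller and 0.0408% a larger one. The median change of the difference over the 1048 sites was -0.001, against 0.02 over all sites, and 523 of the 1048 lay above 0. In the reverse choice the median was -0.21, against 0.005, and 475 of 1446 lay above 0. The calls therefore speak for single sites and not for the chosen sites as a whole. The 8 sites lie in Per2, Tspan4, Thrsp, Hsp90aa1, Srm, Ppp1r3b and Amd1, which held 2, and all are among the 529. Per2 had means of 7.30 CPM in light and 59.5 CPM in dark in wild type, and of 31.5 and 32.4 CPM in Bmal1-/-. The difference of the differences was -3.10 (SE 0.41, adjusted p 0.000324). For Thrsp the means were 138.2 and 941.1 CPM in wild type and 202.2 and 163.5 CPM in Bmal1-/-, and the value was -3.45 (SE 0.69, adjusted p 0.0447). The Ppp1r3b site at chr8:35387335-35387442 went from 2.04 to 8.81 CPM in wild type and from 7.69 to 6.195 CPM in Bmal1-/- (-2.64, SE 0.41, adjusted p 0.00233).

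The Hsp90aa1 site at chr12:110694146-110694346 went from 91.9 to 249.5 CPM in wild type and from 114.05 to 104.7 CPM in Bmal1-/- (-1.505, SE 0.27, adjusted p 0.0146). Srm and Amd1 serve polyamine synthesis, as spermidine synthase and as S-adenosylmethionine decarboxylase. The Srm site (chr4:148594389-148594622) had 9.88, 13.9 and 16.03 CPM in all 6 wild-type libraries at ZT6 and 27.9, 34.1 and 50.9 CPM at ZT14, and in Bmal1-/- 18.7, 24.2 and 28.03, then 19.8, 23.9 and 38.9 CPM. Bmal1-/- groups overlapped. Wild-type groups did not, but the wild-type libraries also chose the site, so their ranges only describe it. In replicates 4 to 6 the value was -1.42 (SE 0.30, adjusted p 0.0447). The 2 Amd1 sites (chr10:40289355-40289396 and chr10:40289414-40289471) gave -1.34 and -1.57 (SE 0.27 and 0.33, adjusted p 0.0447 and 0.0487). Tspan4, a tetraspanin whose promoter with an E-box is printed above, went from 23.7 to 52.6 CPM in wild type and from 51.2 to 36.9 CPM in Bmal1-/- (chr7:141493232-141493429; -1.57, SE 0.29, adjusted p 0.0204). It rose in nuclear RNA by 0.93 (SE 0.24, adjusted p 0.0365) and in polysomal RNA by 1.22 (SE 0.20, adjusted p 0.000247).

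Levels over the whole day were compared as the mean of the 6 time means. These comparisons share the wild-type libraries that chose the sites, so their counts are descriptions. In Bmal1-/- 108 of 518 sites were higher than in wild-type total RNA, against 17.2% of all sites, and 142 were lower, against 16.2%. The Bmal1-/- day mean lay below the lowest wild-type time mean in 74 of the 529 sites, above the highest in 94 and between them in 361. In nuclear RNA 156 of 453 sites were higher and 183 lower, against 39.4% and 43.2% of all sites. In polysomal RNA 108 of 475 were higher and 221 lower, against 37.5% and 37.5%. Of sites highest at ZT6 or ZT10 by the same limits, 144 of 634 were higher and 298 lower in polysomal RNA. Of those highest at ZT22 or ZT2, 426 of 909 were higher and 210 lower. The medians of the sites highest in the dark were -0.09 in nuclear RNA, where all sites had -0.06, and -0.33 in polysomal RNA, where all sites had 0.00. Median-ratio scaling moved the median of all sites to -0.27 and -0.23 and that of the sites highest in the dark to -0.30 and -0.55. Levels in the 2 fractions are therefore read only against those of other sites. Red blood cell markers, a sign of blood in the sample, summed to a median of 8852 CPM in polysomal and 2585 CPM in total RNA, and their part in the polysomal levels was not tested.

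Sites named from these comparisons had a mean of at least 5 CPM over both kinds of RNA and the same direction at 6 of 6 times. Under that rule the largest nuclear excesses lay in sites far inside genes: Atp2a2 (4.52), Abtb2 (4.14), Stard13 (3.92) and Tmed2 (3.88), besides an unnamed site on chromosome 11 (5.50). The largest deficits were -3.90 in Hacl1, -3.67 in a second Chordc1 site 9649 bp before the gene end, and -3.51 in Mup1, with unnamed sites on chromosomes 19 and 5 at -4.31 and -3.76. In polysomal RNA the largest excesses were in Mup16 (2.26), Samd1 (2.14), Tmem37 (1.76) and Tsc22d3 (1.75), and the largest deficits in Thrb (-6.50), Acsl1 (-3.89) and an Hsp90aa1 site (-3.82), with unnamed sites on chromosomes 5 and 4 at -3.59 and -3.37. The Mup genes, major urinary proteins, are near-identical copies, so their reads cannot be placed with certainty.

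In Bmal1-/- the sites furthest below wild type by the same rule were in Cfd, Col27a1 and Hspb1, and those furthest above in Tox2 and Lpl. Col27a1, a fibrillar collagen, had 3 sites, and all 3 were lower in Bmal1-/-. The one at chr4:63334839-63334989 had 0.790, 32.4 and 43.2 CPM in wild-type total RNA at ZT14 and 0.315, 1.71 and 3.06 CPM in Bmal1-/-. All but 1 wild-type library lay above the Bmal1-/- ones at that time, and the level differed by -3.78 (SE 0.22, adjusted p 5.46e-23). The site also rose in the dark in nuclear RNA, by 1.83 (SE 0.41, adjusted p 0.0153), and in polysomal RNA, by 1.82 (SE 0.47, adjusted p 0.0288). Hspb1, a small heat shock protein, had 9.22, 21.1 and 44.4 CPM in wild type at ZT18 and 0.142, 1.53 and 3.56 CPM in Bmal1-/-, without overlap (-3.33, SE 0.23, adjusted p 1.04e-19).

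Several of these sites met the rule through 1 wild-type library. Lpl, lipoprotein lipase, had 3 sites, and the most counted (chr8:68906725-68906940) had 6.42, 14.1 and 235.7 CPM in wild-type total RNA at ZT14, with 1 library far above the other 5. In Bmal1-/- it had 78.1, 257.5 and 382.8 CPM at that time, and its level was 3.51 higher (SE 0.21, adjusted p 1.82e-21). Tox2, an HMG-box factor, had 0.494, 0.974 and 55.1 CPM in wild type at ZT14 (chr2:163324087-163324176) and 57.3, 61.8 and 77.8 CPM in Bmal1-/-, all 6 of which lay above every wild-type library at ZT14 (level 4.12, SE 0.27, adjusted p 8.69e-20). Cfd, the adipocyte protease adipsin, had 0, 0.0943 and 113.6 CPM in wild type at ZT18 (chr10:79892514-79892589), and in Bmal1-/- the median library was at 0 and the highest at 0.928 CPM. The 6 adipose markers, Cfd included, summed to 5.65 to 138.1 CPM in wild type in the dark and to 7.06 to 19.4 CPM in Bmal1-/-, and their part in these values was not tested. Stellate markers had medians of 307.1 CPM in wild type and 385.9 CPM in Bmal1-/-, and cholangiocyte markers of 25.7 and 73.5 CPM.

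Mt2, a metallothionein that binds zinc and answers stress, had the widest ratio of all sites with 10 CPM or more, and 1 library carried it. In wild-type total RNA it had 1.70, 7.37 and 599.1 CPM at ZT18 (chr8:94173338-94173571), and in polysomal RNA 3.18, 24.9 and 1007 CPM. The median libraries at ZT2 had 3.28 and 9.93 CPM, and the polysomal difference of 2.93 missed the threshold (SE 0.85, adjusted p 0.0729).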

How the data were processed

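Liver RNA was sequenced with the Lexogen QuantSeq 3′ mRNA kit, per the labels' protocols, in 144 libraries. The authors deposited raw read counts per polyadenylation site and per gene and a filtered list of sites, whose column of other values is constant and was not used beyond the positions. The submitters' processing notes name STAR 2.4.2a, edgeR and HOMER, with builds mm10 and GRCm38.p5, and the filter behind the list is not given in the sources used here. A site was given to a gene of RefSeq's GRCm38.p6 table on its strand, from its start to 1000 bp past its end, where the ratio of summed site counts to gene counts was 0.3 to 1.5. The strand of 1859 genes was taken from their sites, a method that was right in 95.8% of 7493 genes of known strand.

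Site counts were tested with edgeR 4.0.16 (R 4.3.3), quasi-likelihood with robust fit and TMM scaling, on sites whose counts averaged 10 or more over the libraries, with time as the factor. Adjusted p is Benjamini-Hochberg over all sites tested, threshold 0.05. Usage was tested with the gene's summed site counts as offset, on sites of at least 5% of a gene with at least 50 counts. Alternatives were DESeq2 1.42.0, median-ratio scaling, other filters, other choices of the sites, replicate subsets and a replicate block. The tests were checked on simulated data. The sites and the gene lists were chosen with earlier results of these data known. Sites named are those of the gene lists, the 10 widest ratios at 10 CPM or more, the largest called changes of each comparison and those at the edges of the rule, and sites outside these were picked after their values were seen. Some sites that this rule names are not reported here. None of 360 pairs of libraries of the same group held identical counts.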

Additional observations from a re-analysis of the deposited data

Results flagged for a closer look

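In 22 of 218 groups of 6 libraries, 1 library lay further from the nearest of the others than the critical share of the group's range (Dixon's test). Chance gives this in about 5 percent of groups that were not selected. These groups belong to sites named for their values, some of which met the rule through 1 library. The count is therefore a description and is not set against that rate. In wild-type total RNA these were Mt2 at ZT2 (highest 11.2 CPM) and ZT18 (599.1 CPM), Lpl at ZT2 (69.5 CPM) and ZT14 (235.7 CPM), Cfd at ZT2 (14.9 CPM) and ZT18 (113.6 CPM), and Tox2 at ZT14 (55.1 CPM). The same held for the most counted Hspa5 site at ZT6 (highest 1168 CPM), for the Hspa5 site 522 bp before the gene end at ZT6 (lowest 30.8 CPM) and for the Alas1 site 465 bp before the gene end at ZT2 (highest 225.3 CPM).

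In nuclear RNA they were Por at ZT2 (lowest 129.2 CPM) and that Alas1 site at ZT14 (highest 346.4 CPM). In polysomal RNA they were Per2 at ZT14 (74.5 CPM), Mt2 at ZT18 (1007 CPM) and St3gal5 at ZT2 (121.1 CPM). In Bmal1-/- RNA they were Ppp1r3b at ZT6 (688.5 CPM), Cfd at ZT2 (0.473 CPM) and ZT18 (0.928 CPM), Cyp4a10 at ZT6 (280.9 CPM) and ZT18 (2755 CPM), St3gal5 at ZT2 (235.5 CPM) and the Hspa5 site 522 bp before the gene end at ZT6 (181.0 CPM).

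At 8 sites the dark minus light difference was smaller in Bmal1-/- than in wild-type total RNA, in replicates 4 to 6 and by edgeR's quasi-likelihood test of the difference itself. The differences of differences on the log2 scale were -3.45 for Thrsp, -3.10 for Per2, -2.64 for Ppp1r3b, -1.57 for Tspan4, -1.505 for Hsp90aa1, -1.42 for Srm, and -1.57 and -1.34 for Amd1.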

How the results depend on the processing

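Of 94 alternatives to the counts of called sites, 84 stayed within 1.5 times the count reported. With replicates 1 to 3 only, 10 sites rose in nuclear and 6 in polysomal RNA, and with replicates 4 to 6 only, 25 rose in nuclear RNA; these fits hold fewer libraries. Sites chosen in wild-type replicates 1 to 3 gave 20 in nuclear replicates 4 to 6, and the reverse choice in wild-type total RNA gave 121 higher. With a ratio of at least 3, which leaves 125 sites, 38 rose in nuclear and 32 in polysomal RNA, and levels differed at 77 sites in nuclear, 85 in polysomal and 63 in Bmal1-/- RNA. The level in Bmal1-/- changed sign for an Elovl6 site (-0.79, and 0.38 in replicates 4 to 6) and for a Mup1 site (-0.58, and 1.79 in replicates 1 to 3), and the cause was not tested. The number of sites with a smaller difference in Bmal1-/- ran from 6 to 12 over its alternatives, and 0 had a larger one except under the reverse choice, where 2 did.

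Replicate numbers pair no samples by the labels. The correlation of same-numbered libraries' deviations between nuclear and total RNA at a time averaged 0.22 (lowest -0.26), against -0.04 for other numbers. Between polysomal and total RNA it averaged -0.07, against 0.02. Across times within 1 kind of RNA, same-numbered libraries averaged 0.19 to 0.26, against -0.05 to -0.04 for other numbers. The main fits hold no term for the replicate number. With the replicate block 103 sites rose in nuclear and 93 in polysomal RNA (1 fell) and 0 in Bmal1-/-, levels differed at 347, 328 and 269 sites, and usage at 2, 0 and 0. Nuclear libraries had the fewest counts, so that 316 of the 529 sites could be tested there.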
